A study of Mus musculus with 15 samples.

Results

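The E2F family and the pocket proteins were followed across 15 RNA sequencing libraries of mouse CD8+ T cells. The members were chosen by gene symbol: 7 E2F transcription factors (E2f1, E2f2, E2f3, E2f4, E2f6, E2f7 and E2f8) and 3 pocket proteins (Rb1, Rbl1 and Rbl2). All 10 listed members had a row in both expression tables, out of 11262 genes in the table of freshly activated cells and 11211 genes in the table of cytotoxic T lymphocytes (CTL). No filter on low values was applied, so every member entered every comparison.

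The cells came from P14 mice, which carry a transgenic T cell receptor (TCR) for the gp33-41 peptide of lymphocytic choriomeningitis virus, so nearly every CD8+ T cell answers one peptide. The first table held 3 groups of 3 libraries from female mice aged 9 to 13 weeks, and each replicate was a pool of cells from 3 mice divided between the groups. Naive cells were sorted ex vivo as TCRβ+ CD8+ cells with the surface phenotype of naive cells, low CD44 included. TCR activated cells were cultured for 24 h with gp33-41 at 100 ng/ml, interleukin-12 at 2 ng/ml, interleukin-2 (IL-2) at 20 ng/ml and the DMSO vehicle, and viable CD8+ cells were sorted at the end. The third group, TCR + PI3Kdi, had the same treatment with 10 µM IC87114, an inhibitor of the phosphoinositide 3-kinase catalytic subunit p110δ. The second table held 2 groups of 3 CTL libraries, from P14 cells activated for 48 h, grown for 4 days in 20 ng/ml IL-2 and washed on day 6. CTL with IL-2 had the cytokine added back, and CTL without IL-2 were deprived of it for 24 h. Ages of the mice behind the CTL libraries were not given in the sources used here. For 2 of the 3 CTL libraries with IL-2, the treatment label named another interleukin, and these libraries were grouped by their titles.

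E2F factors bind the promoters of genes for DNA replication and the cell cycle, most of them as dimers with a DP protein. E2f1, E2f2 and E2f3 encode activators, and the retinoblastoma protein and its relatives hold E2Fs in check until cyclin-dependent kinases phosphorylate these pocket proteins. E2f4 encodes a repressor that in resting cells joins the Rbl2 product p130 and the MuvB core in the DREAM complex, E2f6 encodes a repressor that works with Polycomb proteins without a pocket protein, and E2f7 and E2f8 encode atypical repressors that need no DP partner and are themselves E2F targets. T cells leave quiescence after antigen recognition and divide rapidly, and IL-2 sustains the division of CTL.

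Because several members are known to lie downstream of other E2Fs, the promoter windows of the members were searched for an E2F consensus (TTTCCCGC, TTTCGCGC, TTTGCCGC or TTTGGCGC) and for the CHR element of cell cycle genes (TTTGAA or TTCGAA), on both strands. RefSeq windows on GRCm38.p6, each reaching from 250 bases before to 50 bases after an annotated start, were found for 8 of the 10 members (10 windows in all), with none for E2f4 and Rb1. An E2F consensus was present in 4 of the 10 windows (of E2f2, E2f3, E2f7 and Rbl1), against 2.26% of all 32851 windows and 4.21% of the windows of genes in the first table. The CHR letters were present in 4 of the 10 (of E2f2, E2f3, E2f8 and Rbl2), against 19.2% of all windows and 13.6% of the windows of genes in the first table. The CHR match of E2f2 lay in another window than its E2F match, with a start 8508 bases inside the annotated gene. Of 27 windows of a G1/S target list 12 held an E2F consensus, and of 11 windows of G2/M genes 8 held the CHR letters. The matched stretches of the members that show these letters nearest a start, or that rose from near 0, are given below in gene direction, with the matches in capitals; GCGGGAAA is TTTCCCGC and TTCAAA is TTTGAA on the opposite strand.
Rbl1, chr2:157204535-157204594, minus strand, up to the base before the start: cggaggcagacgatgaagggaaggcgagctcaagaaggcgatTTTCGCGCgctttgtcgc
E2f3, chr13:29986064-29986123, minus strand, up to the base before the start, an E2F and a CHR match: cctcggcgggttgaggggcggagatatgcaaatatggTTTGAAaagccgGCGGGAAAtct
E2f7, chr10:110745215-110745274, plus strand, upstream of the start: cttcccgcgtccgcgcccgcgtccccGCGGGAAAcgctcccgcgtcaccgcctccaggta
E2f2, chr4:136172294-136172323, plus strand, just after the start: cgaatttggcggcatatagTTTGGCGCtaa
E2f8, chr7:48881598-48881627, minus strand, before a start that lies inside the longer annotated gene: agcgggttaatTTCAAAtcgggggctggac
These matches describe the letters only and say nothing of which factor was bound in these cells. No match was found in the E2f1 window, whose start lies 466 bases inside the annotated gene, or in the E2f6 window.

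Expression is given as FPKM, fragments per kilobase of exon scaled to the size of the library, a level per length, so that levels of different genes in one library can be set side by side. Differences were tested with limma on log2(FPKM + 0.1) across every gene of a table, and a gene is called when its adjusted p is under 0.05 and its fitted change exceeds 2-fold. The spacing of low FPKM values put the depth at about 11200000 to 14500000 counted reads per library in the first table and 9800000 to 12500000 in the CTL table. Replicates of a group correlated at 0.983 or higher over all genes. The 5 CD8 and CD3 genes summed to 637 FPKM or more in every library, and naive cells held Cd44 at 7.56 ± 0.460 FPKM (SD, n = 3). B cell transcripts (4 of 5 listed genes present) summed to between 20.9 and 26.3 FPKM in naive, 4.63 and 7.12 in TCR activated and 3.30 and 4.58 FPKM in TCR + PI3Kdi libraries, most of it Cd79b in naive cells (20.3 ± 1.24 FPKM), and Pax5 was not listed. Of 7 myeloid and dendritic genes, 3 were present in the first table, summing to between 5.13 and 11.3 FPKM in naive, 5.06 and 7.66 in TCR activated and 4.07 and 5.22 FPKM in TCR + PI3Kdi libraries, while Lyz2, Csf1r, Itgax and Cd14 were not listed. Against TCR activated cells, 2 of the 4 B cell genes and 1 of the 3 myeloid and dendritic genes, H2-Aa (3.09 ± 1.48 and 0.567 ± 0.0737 FPKM), were called lower with the inhibitor. The part of these transcripts in the results below was not tested. In these bulk libraries fewer cells of a type and less RNA per cell cannot be told apart.

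In naive cells most E2F mRNA came from the repressor genes. E2f4 was the most abundant member at 69.2 ± 17.4 FPKM and Rbl2 the next at 37.1 ± 0.721 (SD, n = 3). The repressors E2f4 and E2f6 made up 93.5% ± 1.23 of the summed FPKM of the 7 E2Fs, the activators 6.43% ± 1.22, and the atypical pair 0.0408% ± 0.0122. Rbl2 made up 59.7% to 60.2% of the pocket protein FPKM in the 3 libraries, with Rbl1 at 20.7% ± 0.483 and Rb1 at 19.3% ± 0.479. In the order of naive levels, E2f4, Rbl2, Rbl1, Rb1 and E2f6 came before the activators, and E2f2 and E2f3 were the only neighbours in that order whose libraries overlapped.

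**Figure D1:**
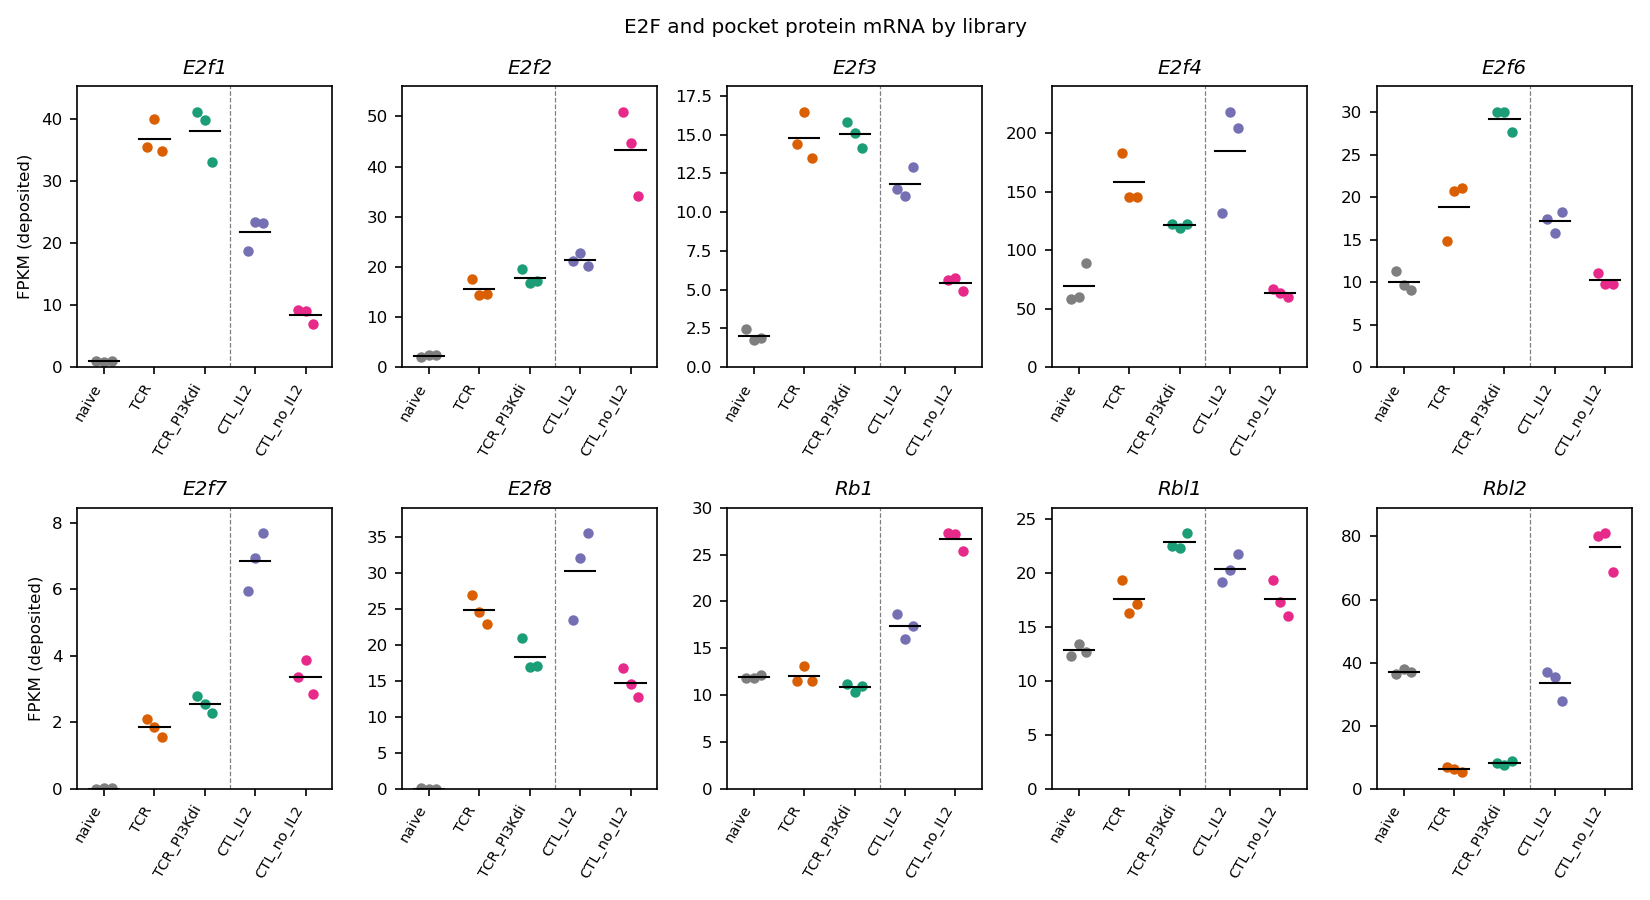
Deposited FPKM of the 10 members in each of the 15 libraries, with 1 panel per gene and its own linear axis from 0; points are libraries, horizontal lines are group means, and the dashed line separates the tables, which were normalised apart. E2f1, E2f3, E2f7 and E2f8 sit near the axis in naive cells and lower in CTL without IL-2 than with it, whereas E2f2 and Rbl2 are higher without IL-2.

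After 24 h of TCR activation the activator and atypical E2Fs were higher and Rbl2 was lower than in naive cells. Among the 10 members, 6 were called higher than in naive cells (E2f1, E2f2, E2f3, E2f4, E2f7 and E2f8) and 1 lower (Rbl2), and 3 were not called. Over all 11262 genes 48.7% were called, 25.0% higher and 23.7% lower. By limma 9 members passed the adjusted p alone, against 80.8% of all genes. The libraries of the 2 groups did not overlap for 9 members, against 80.7% of all genes, and the median fitted log2 change of the members was 1.95 against 0.01 for all genes.

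Among the activators, E2f1 was listed at 1.00, 0.88 and 0.93 FPKM in naive replicates 1 to 3 and at 35.53, 40.10 and 34.96 FPKM after TCR activation. Every activated library lay far above every naive one, a log2 change of 5.15 (SE 0.11, limma adjusted p = 2.6e-11) or 35.6-fold. With a pseudocount of 1 in place of 0.1 the fitted change of E2f1 was 4.29, and the ratio of mean FPKM was 39.4. E2f2 was listed at 2.10, 2.48 and 2.43 FPKM in naive and 17.69, 14.46 and 14.67 FPKM in activated libraries, a log2 change of 2.69 (SE 0.12, limma adjusted p = 3.8e-09). E2f3 was listed at 2.46, 1.76 and 1.89 FPKM in naive and 14.39, 16.49 and 13.52 FPKM in activated libraries, a log2 change of 2.81 (SE 0.14, limma adjusted p = 7.2e-09). All 3 activators thus rose, but not in proportion. In naive cells E2f1 was the lowest of them and held 17.6% ± 0.406 of the activator FPKM. After activation it held 54.8% ± 2.01, and E2f2 went from 2.51 ± 0.370 times the level of E2f1 to 0.426 ± 0.0689 times. E2f1 was then second only to E2f4 among the members, with no overlap of its libraries with E2f8, the next in order.

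The atypical E2Fs were the members nearest to 0 in naive cells. E2f8 was listed at 0.04, 0.02 and 0.02 FPKM in naive and at 26.91, 24.61 and 22.92 FPKM in activated libraries. E2f7 was blank in naive replicate 1, at 0.01 FPKM in the other 2, and at 2.11, 1.85 and 1.57 FPKM after activation. At the estimated depth the naive values stand for 2 reads or fewer per library for E2f8 and 1 or fewer for E2f7, so no ratio is given. Both were called higher with every pseudocount tried. As for E2f1, but more so, the fitted log2 change depended on the pseudocount added to FPKM: for E2f8 it was 4.65 with 1 and 9.44 with 0.01, and for E2f7 1.49 with 1 and 6.86 with 0.01. Within the pair E2f8 predominated, at 13.6 ± 0.947 times the level of E2f7 in activated cells.

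The repressors moved less. E2f4 was listed at 58.06, 60.24 and 89.26 FPKM in naive and 183.50, 145.64 and 145.24 FPKM in activated libraries, a log2 change of 1.21 (SE 0.15, limma adjusted p = 1.7e-05). The groups did not overlap, although naive replicate 3 stood above the other 2 naive libraries. E2f6 was listed at 11.27, 9.73 and 9.09 FPKM in naive and 14.84, 20.74 and 21.03 FPKM in activated libraries. Its log2 change of 0.89 (SE 0.14, limma adjusted p = 9.8e-05) passed the test but stayed under 2-fold, and it was called when TCR replicate 1, the lowest activated library, was left out (1.06). E2f4 was still the most abundant member after activation, yet the repressors' share of E2F FPKM was 65.3% ± 2.10, with 24.9% ± 2.00 for the activators and 9.84% ± 0.191 for the atypical pair.

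Of the 3 pocket proteins 1 was called. Rbl2, which encodes the quiescence-linked p130, was listed at 36.50, 37.90 and 36.90 FPKM in naive and 6.97, 6.27 and 5.46 FPKM in activated libraries, and fell by 2.56 on the log2 scale (SE 0.11, limma adjusted p = 2.5e-09). Rbl1, which encodes the p107 protein of cycling cells, was at 12.33, 13.44 and 12.70 FPKM and then at 19.30, 16.27 and 17.13 FPKM, a log2 change of 0.45 (SE 0.09, limma adjusted p = 8.4e-04) with no overlap and under 2-fold. Rb1 was at 11.79, 11.86 and 12.16 FPKM in naive and 11.45, 13.10 and 11.52 FPKM in activated libraries, which overlapped, with a log2 difference of 0.01 (SE 0.09, limma adjusted p = 0.94). The ratio of Rbl2 to Rbl1 went from 2.90 ± 0.0707 to 0.355 ± 0.0337. Summed activator FPKM was 0.0859 ± 0.00541 of the summed pocket protein FPKM in naive cells and 1.88 ± 0.103 times it after activation.

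**Figure D2:**
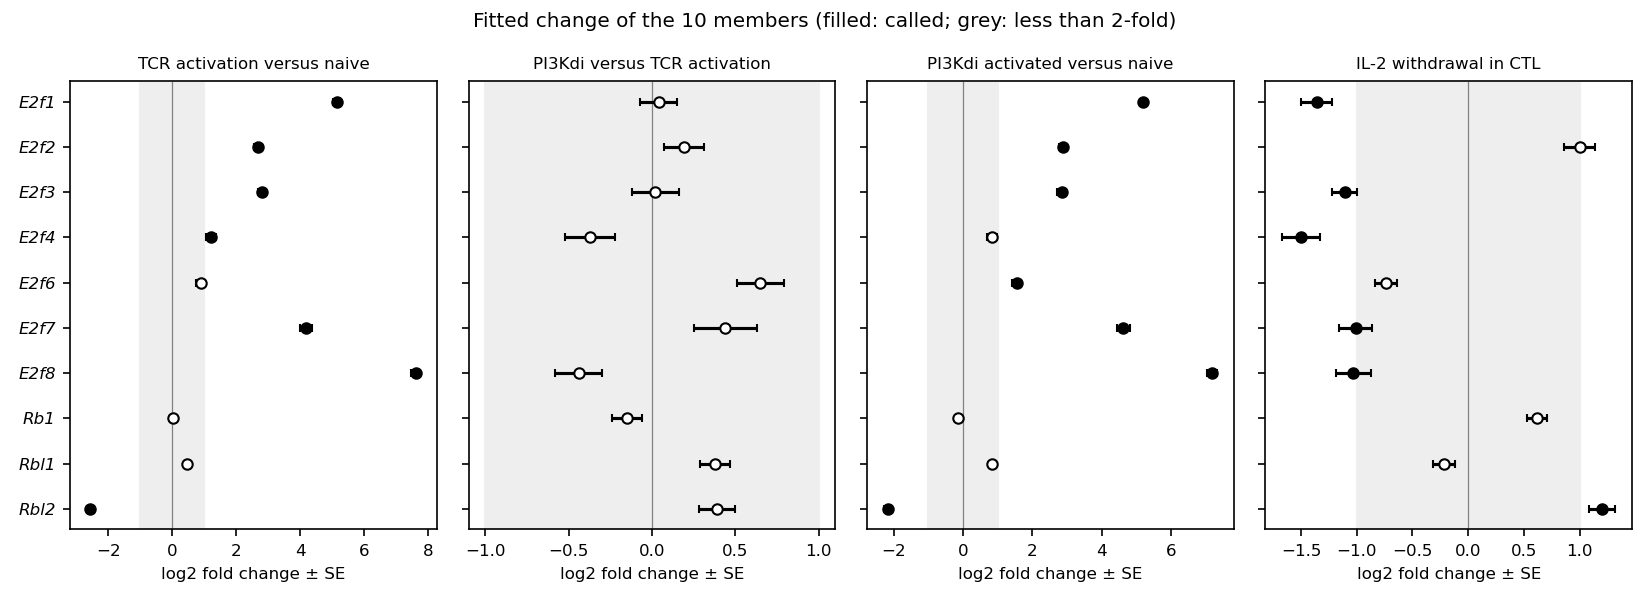
Fitted log2 fold change of each member in the 4 comparisons, with bars for the standard error; filled points are called, grey bands mark changes under 2-fold, and each panel has its own scale. The changes of E2f1, E2f7 and E2f8 against naive cells depend on the pseudocount of 0.1, no point leaves the 2-fold band between TCR + PI3Kdi and TCR activated cells, and after IL-2 withdrawal E2f2, Rb1 and Rbl2 are the points above 0.

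With p110δ inhibited during activation, E2f1, E2f2 and E2f3 were called above naive cells as they were without the inhibitor, and E2f6 and Rbl1 passed the test above TCR activated cells at under 2-fold, with and without pairing of replicates. TCR + PI3Kdi libraries were compared with TCR activated ones, and with naive cells. These comparisons share libraries with the one above, so their values are given side by side. None of the 10 members was called between TCR + PI3Kdi and TCR activated cells, where limma called 5.14% of all genes, 3.04% higher and 2.10% lower. By limma 3 members, all higher, passed the adjusted p alone, against 17.5% of all genes (9.35% higher), and 6 had an unadjusted p under 0.05, against 31.5% of all genes. With replicates paired, Rbl2 did not pass the adjusted p and E2f8 passed it on the lower side, so that 2 members passed above and 1 below. The median log2 difference of the members was 0.12, against -0.01 for all genes. Against naive cells, inhibitor-treated cells had 6 members called higher and 1 lower, with 45.0% of all genes called, 23.6% higher and 21.3% lower. There 9 members passed the adjusted p alone by limma, against 79.1% of all genes, and all 10 had groups that did not overlap, against 82.9%.

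E2f1 was listed at 41.24, 39.85 and 33.17 FPKM with the inhibitor, E2f2 at 19.52, 16.75 and 17.14 FPKM and E2f3 at 15.82, 15.13 and 14.11 FPKM. Each range overlapped that of the TCR activated libraries. The log2 differences were 0.04 for E2f1 (SE 0.11, limma adjusted p = 0.84), 0.19 for E2f2 (SE 0.12, limma adjusted p = 0.32) and 0.02 for E2f3 (SE 0.14, limma adjusted p = 0.93). The signs for E2f1 and E2f3 turned with single libraries left out (lowest values -0.02 without TCR + PI3Kdi replicate 1 for E2f1, and -0.04 without TCR replicate 3 for E2f3). Against naive cells the log2 changes of E2f1, E2f2 and E2f3 were 5.20, 2.88 and 2.84 with the inhibitor, beside 5.15, 2.69 and 2.81 without it.

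The other members lay on both sides of their TCR activated levels. For 7 of 10 members the 3 inhibitor-treated libraries did not overlap the 3 TCR activated ones, against 36.7% of all genes (18.1% above and 18.6% below): E2f6, E2f7, Rbl1 and Rbl2 lay above and E2f4, E2f8 and Rb1 below. E2f6, the Polycomb-linked repressor, was listed at 30.07, 30.02 and 27.61 FPKM with the inhibitor, a log2 change of 0.65 (SE 0.14, limma adjusted p = 0.0093). It was the member furthest from its TCR activated level, and the only one called with a limit of 1.5-fold. Against naive cells it was called in inhibitor-treated cells (log2 1.54, SE 0.14, limma adjusted p = 1.2e-06) and not in TCR activated ones.

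Rbl1 was listed at 22.49, 22.35 and 23.69 FPKM with the inhibitor, a log2 change of 0.38 (SE 0.09, limma adjusted p = 0.017). Rbl2 was at 8.08, 7.52 and 8.86 FPKM, a log2 change of 0.39 (SE 0.11, limma adjusted p = 0.036), with an adjusted p of 0.053 by limma when replicates were paired. All 3 libraries lay above the TCR activated ones and far below the naive ones for Rbl2. Rb1 was at 11.18, 10.37 and 10.99 FPKM, a log2 difference of -0.15 (SE 0.09, limma adjusted p = 0.33).

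E2f8 was listed at 20.94, 16.97 and 17.02 FPKM with the inhibitor, a log2 difference of -0.44 (SE 0.14, limma adjusted p = 0.057, and 0.042 with paired replicates). E2f7, its partner, lay on the other side, at 2.80, 2.54 and 2.27 FPKM and a log2 difference of 0.44 (SE 0.19, limma adjusted p = 0.13). The ratio of E2f8 to E2f7 was 7.22 ± 0.466 with the inhibitor, between 6.68 and 7.50, against 12.8 to 14.6 in TCR activated libraries. E2f4 was at 122.41, 119.47 and 122.27 FPKM, a log2 difference of -0.37 (SE 0.15, limma adjusted p = 0.12). Against naive cells E2f4 was under 2-fold in inhibitor-treated cells (log2 0.84, limma adjusted p = 3.6e-04) and was called when naive replicate 3 was left out (1.04).

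After 24 h without IL-2, CTL had lower E2f1 and E2f3 and higher Rbl2, while E2f2 passed the test on the higher side at the 2-fold limit. Of the 10 members, 5 were called lower (E2f1, E2f3, E2f4, E2f7 and E2f8), 1 was called higher (Rbl2) and 4 were not called, while 28.2% of the 11211 genes were called, 13.9% lower and 14.3% higher. By limma 9 members passed the adjusted p alone, against 71.9% of all genes, and libraries of the groups did not overlap for 9 members, against 76.1% of all genes. The median log2 change of the members was -0.88, against 0.00 for all genes. The counts lie close to the 2-fold limit: 3 to 5 members were called lower and 1 or 2 higher as single libraries were left out.

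E2f1 was listed at 18.72, 23.36 and 23.25 FPKM in CTL with IL-2 and 9.22, 9.15 and 6.96 FPKM without, and fell by 1.36 on the log2 scale (SE 0.14, limma adjusted p = 1.8e-05). E2f3 was at 11.49, 11.04 and 12.93 FPKM with and 5.62, 5.73 and 4.90 FPKM without IL-2, and fell by 1.11 (SE 0.11, limma adjusted p = 1.9e-05). With a pseudocount of 1 the call of E2f3 was lost (-1.0) and that of E2f1 was kept (-1.27). Both activators were lower in every deprived library. E2f2 lay the other way, at 21.12, 22.71 and 20.21 FPKM with IL-2 and 50.96, 44.79 and 34.13 FPKM without. Its log2 change of 1.00 (SE 0.14, limma adjusted p = 1.3e-04) fell just short of the 2-fold limit. It was called without CTL no IL-2 replicate 3, the lowest deprived library (1.16), and without CTL IL-2 replicate 2 (1.04), and the direction was the same in all 14 alternatives. Every deprived library held more E2f2 than any library with IL-2.

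The summed activator level overlapped between the groups while its make-up did not. Summed activator FPKM was 54.9 ± 3.15 with IL-2 and 57.2 ± 10.1 without, from 51.3 to 57.1 and from 46.0 to 65.8 in single libraries. E2f2 held 38.9% ± 2.75 of it with IL-2 and 75.6% ± 1.68 without, while E2f1 went from 39.5% ± 2.66 to 14.8% ± 0.713 and E2f3 from 21.5% ± 1.94 to 9.60% ± 1.06. The level of E2f2 was 0.990 ± 0.130 times that of E2f1 with IL-2 and 5.11 ± 0.362 times without, between 4.90 and 5.53 in the 3 deprived libraries. E2f1 and E2f2, overlapping neighbours in the order of levels with IL-2, were separated by 4 other members without it.

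**Figure D3:**
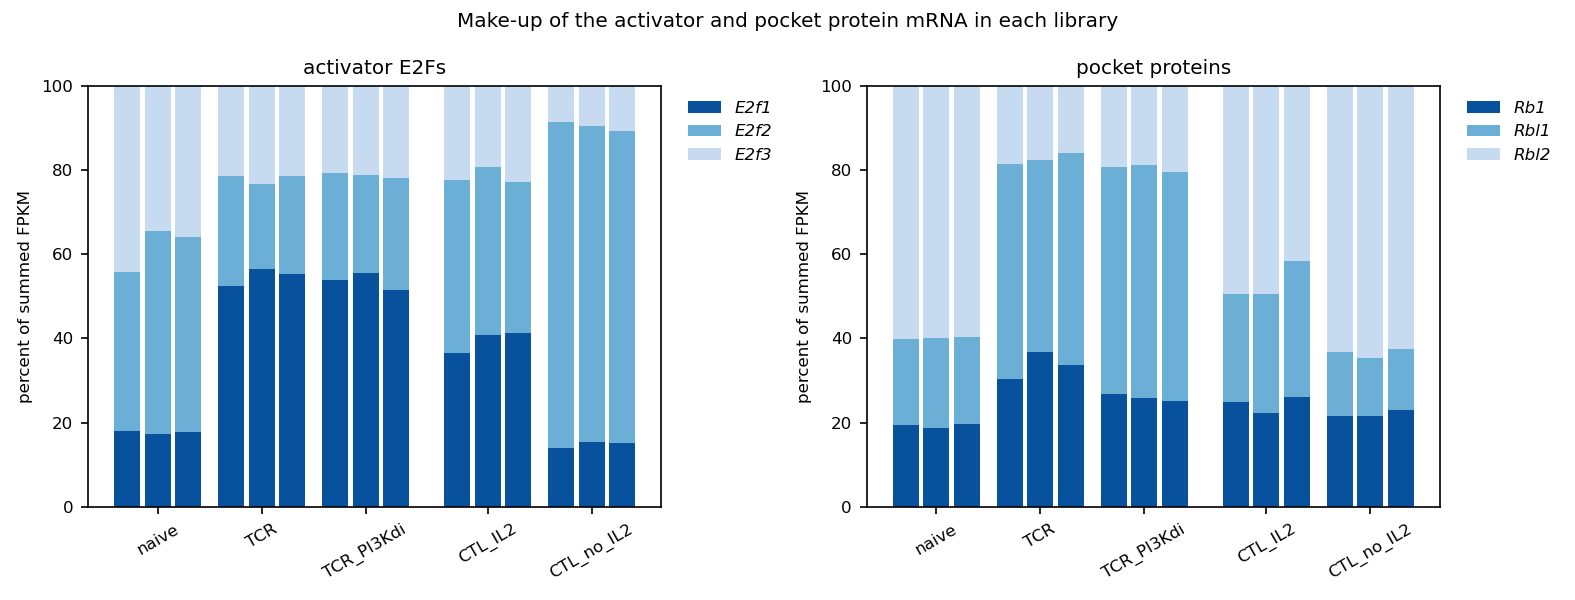
Share of E2f1, E2f2 and E2f3 in summed activator FPKM and of Rb1, Rbl1 and Rbl2 in summed pocket protein FPKM; each bar is 1 library, 3 per group. E2f2 fills about the same share as E2f1 in CTL with IL-2 and 75.6% without it, and Rbl2 holds 59.7% to 60.2% in naive cells, 17.4% after TCR activation and 63.4% in CTL without IL-2.

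Both repressors were lower without IL-2. E2f4 was listed at 132.34, 218.71 and 204.76 FPKM with IL-2 and 67.15, 63.94 and 60.39 FPKM without, and fell by 1.5 (SE 0.17, limma adjusted p = 3.1e-05). CTL IL-2 replicate 1 stood below the other 2 libraries of its group and still above all deprived ones. E2f6 was at 17.48, 15.76 and 18.21 FPKM with and 11.12, 9.82 and 9.76 FPKM without, and fell by 0.74 (SE 0.10, limma adjusted p = 1.2e-04), less than 2-fold. The activators' share of E2F FPKM was 19.0% ± 2.83 with IL-2 and 38.1% ± 2.79 without.

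The atypical pair fell together. E2f7 was listed at 5.94, 6.95 and 7.69 FPKM with IL-2 and 3.35, 3.88 and 2.85 FPKM without, and fell by 1.01 (SE 0.15, limma adjusted p = 2.5e-04). E2f8 was at 23.44, 32.10 and 35.59 FPKM with and 16.80, 14.56 and 12.78 FPKM without, and fell by 1.03 (SE 0.16, limma adjusted p = 2.9e-04). Both fitted changes sit at the limit, so each call was lost in 5 of 14 alternatives, among them leaving out CTL IL-2 replicate 2 or 3 or CTL no IL-2 replicate 3 (-0.90 to -1.0 for E2f7 and -0.90 to -0.98 for E2f8). The ratio of E2f8 to E2f7 was 4.40 ± 0.391 with and 4.42 ± 0.634 without IL-2.

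Among the pocket proteins Rbl2 rose, from 37.11, 35.33 and 27.83 FPKM with IL-2 to 80.27, 81.08 and 68.72 FPKM without, a log2 change of 1.20 (SE 0.12, limma adjusted p = 1.5e-05). It then passed E2f4 as the most abundant member, and the deprived libraries of these genes did not overlap. Rb1 was at 18.67, 15.97 and 17.41 FPKM with and 27.29, 27.23 and 25.38 FPKM without, a log2 change of 0.62 (SE 0.09, limma adjusted p = 1.8e-04) that passed the test under 2-fold. Rbl1 was at 19.17, 20.27 and 21.76 FPKM with and 19.38, 17.27 and 16.03 FPKM without, overlapping, with a log2 difference of -0.22 (SE 0.10, limma adjusted p = 0.072). The level of E2f4 was 5.70 ± 1.94 times that of Rbl2 with IL-2 and 0.835 ± 0.0451 times without, and the ratio of Rbl2 to Rbl1 went from 1.65 ± 0.338 to 4.37 ± 0.287. Of the myeloid and dendritic genes, 4 of 7 were present in CTL and summed to between 6.31 and 10.7 FPKM with and 14.0 and 22.8 FPKM without IL-2. Mean Itgam went from 0.293 to 4.09 FPKM and Itgax from 0.310 to 4.55 FPKM. Libraries overlapped for Cd68 (means 7.69 with and 8.78 FPKM without) and H2-Aa (0.797 and 0.740 FPKM). Cd79b, the only 1 of 5 B cell genes listed, was between 2.74 and 6.30 FPKM with and 10.8 and 20.6 FPKM without, and Cd4 between 0.05 and 0.39 FPKM with and 0.92 and 1.92 FPKM without. The summed CD8 and CD3 genes were between 971 and 1040 FPKM with and 1880 and 2070 FPKM without. Lyz2, Csf1r, Cd14, Cd79a, Ms4a1 and Pax5 were not listed in the CTL table. The part of these transcripts in the results was not tested.

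Genes that work with the members were described from lists of partners, regulators and targets. Tfdp1, which encodes the main dimer partner DP1, was at 20.1 ± 0.984 FPKM in naive and 276 ± 15.5 FPKM in TCR activated cells, a log2 change of 3.77 (SE 0.07, limma adjusted p = 1.3e-11). It was at 239 ± 5.39 FPKM with the inhibitor, a log2 difference of -0.21 (limma adjusted p = 0.081), and fell by 1.31 after IL-2 withdrawal (SE 0.10, limma adjusted p = 2.8e-06). Tfdp2, the other DP gene, was at 1.83 ± 0.387 FPKM with IL-2 and 7.82 ± 0.534 FPKM without, a log2 change of 2.06 (SE 0.17, limma adjusted p = 4.9e-06), and was not called in the first table, where it passed the adjusted p above TCR activated cells with the inhibitor (0.53, limma adjusted p = 0.038). The DP genes moved in opposite directions on IL-2 withdrawal. E2f5, a p130-binding repressor that is not among the members, was at 8.24 ± 0.265, 8.70 ± 1.98 and 5.83 ± 0.528 FPKM in naive, TCR activated and TCR + PI3Kdi cells, and at 3.97 ± 0.183 and 1.97 ± 0.408 FPKM in CTL with and without IL-2. It was called in none of the 4 comparisons but passed the adjusted p on the lower side with the inhibitor, against TCR activated (-0.55, limma adjusted p = 0.036) and naive cells (-0.49, limma adjusted p = 0.013), and after IL-2 withdrawal (-1.0, limma adjusted p = 5.8e-04).

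Of 8 DREAM and MuvB genes, 3 were called higher after TCR activation, where 25.0% of all genes were: Mybl2 (B-MYB, log2 5.94), Foxm1 (3.80) and Mybl1 (2.34), the factors that join the complex in cycling cells. Mybl1 was low, at 0.137 ± 0.0321 FPKM in naive and 1.11 ± 0.230 FPKM in activated cells. With a pseudocount of 1 its log2 change was 0.88, under the 2-fold limit. The MuvB core genes stayed under 2-fold: Lin9 (0.65), Lin54 (0.77) and Rbbp4 (0.68) passed the test above naive cells, and Lin37 (-0.84) and Lin52 (-0.38) below. None of the 8 was called with the inhibitor by limma, against 5.14% of all genes, and none had an unadjusted p under 0.05, against 31.5%. After IL-2 withdrawal 1 of the 8 was called, where 28.2% of all genes were. It was Mybl2, which fell by 1.77 (SE 0.16, limma adjusted p = 1.0e-05) from 25.0 ± 3.50 to 7.29 ± 1.47 FPKM, while Foxm1 differed by -0.27 (limma adjusted p = 0.062). Lin9 (-0.78), Lin54 (-0.78) and Mybl1 (-0.58) passed the adjusted p below CTL with IL-2 and Lin37 (0.49) above, and Lin52 (-0.06) and Rbbp4 (-0.10) did not pass it. Of 8 partners of E2f6 in its Polycomb complex, none was called in TCR activated cells by limma, where 48.7% of all genes were. The adjusted p alone was passed by 8, against 80.8% of all genes. With the inhibitor Max alone of the 8 passed the adjusted p above TCR activated cells (0.36), against 9.35% of all genes. Pcgf6 and Max, 2 of the 8, were called higher than in naive cells (1.27 and 1.06), where 23.6% of all genes were. Pcgf6 and Rybp, 2 of the 8, were called lower after IL-2 withdrawal (-1.31 and -1.19), where 13.9% of all genes were. The adjusted p alone was passed there by 2 on the higher and 5 on the lower side, against 35.2% and 36.6% of all genes.

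The kinases that release E2Fs from pocket proteins, and their inhibitors, were a list of 16 genes, of which 12 were present in the first and 14 in the CTL table. After TCR activation 7 were called higher and 2 lower, against 25.0% and 23.7% of all genes. Ccna2, for cyclin A2, was at 0.130 ± 0.0624 FPKM in naive and 110 ± 13.7 FPKM in activated cells, and Ccne2, for cyclin E2, at 0.127 ± 0.0321 and 24.8 ± 2.49 FPKM. Cdkn1a, for the inhibitor p21, was also called higher, from 0 FPKM in every naive library to 8.02 ± 4.23 FPKM. Cdkn1b, for the quiescence-linked inhibitor p27, fell by 2.73 (SE 0.16, limma adjusted p = 3.3e-08) from 49.4 ± 4.84 to 7.45 ± 1.44 FPKM, and Cdkn2d fell by 1.04. With p110δ inhibition 1 of the 12 was called, where 5.14% of all genes were. It was Cdkn1a, lower at 2.36 ± 0.838 against 8.02 ± 4.23 FPKM (log2 -1.66, limma adjusted p = 0.0086) and still called above naive cells. Ccnd3, for cyclin D3, passed the adjusted p only (-0.64, limma adjusted p = 9.4e-04).

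After IL-2 withdrawal 8 of the 14 were called lower and 1 higher, against 13.9% and 14.3% of all genes. The 1 called higher was Cdkn1b, at 10.4 ± 1.03 FPKM with and 60.1 ± 7.75 FPKM without IL-2 (log2 2.52, SE 0.11, limma adjusted p = 2.8e-07). The largest falls were in Cdkn2b (43.1 ± 9.72 to 3.86 ± 1.22 FPKM) and Cdkn2a (85.1 ± 21.7 to 12.2 ± 3.33 FPKM), which also encode inhibitors and were not listed in the first table. Skp2, a ubiquitin ligase subunit that targets p27, was called lower (-1.36), as the single call among 4 genes of E2F turnover. In the first table Skp2, Ccnf and Fbxo5 were called higher on activation (2.90, 5.60 and 2.20), and none of the 4 was called by limma with the inhibitor. Fzr1, an activator of the anaphase-promoting complex, passed the adjusted p below TCR activated cells (-0.52, SE 0.13, limma adjusted p = 0.018) and was the only 1 of the 4 with an unadjusted p under 0.05.

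Among 28 G1/S genes known as E2F targets, 27 were called higher and none lower after TCR activation, with a median log2 change of 3.84. The shares of all genes called were 25.0% higher and 23.7% lower. With the pseudocount of 0.1, Mcm10, Tk1 and Rrm2, genes of replication and nucleotide supply, had the largest fitted changes, an order that was not the same with pseudocounts of 1 or 0.01. Their mean levels went from 0.0333, 0.173 and 0.860 FPKM to 57.4, 67.6 and 235 FPKM. With the inhibitor none of the 28 was called by limma, against 5.14% of all genes, and 8 had an unadjusted p under 0.05, against 31.5%. The adjusted p alone was passed by 3 on the higher side, among them Mcm2 (0.40), and by 2 on the lower side, Rrm2 (-0.38) and Ezh2 (-0.37), against 9.35% and 8.19% of all genes, and the median difference was 0.04. After IL-2 withdrawal 14 were called lower and none higher, where 13.9% of all genes were called lower, with a median of -1.0, and 27 passed the adjusted p on the lower side and 1 on the higher, against 36.6% and 35.2% of all genes. Orc1, Cdc6 and Mcm2 fell by 2.19, 1.72 and 1.62.

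Of 12 G2/M genes, all were called higher after TCR activation, against 25.0% of all genes. The median was 7.08, or 4.95 with a pseudocount of 1, and naive levels lay between 0.0233 and 2.72 FPKM. With the inhibitor all 12 fitted differences were negative with a median of -0.66. Plk1 (-1.06) and Aurka (-1.03), both mitotic kinases, were called lower, against 2.10% of all genes. The adjusted p alone was passed by 5 on the lower side, against 8.19% of all genes. After IL-2 withdrawal 10 of the 12 passed the adjusted p on the lower side and none on the higher, against 36.6% and 35.2% of all genes. The median was -0.52, and 1 of them, Plk1, was called (-1.08), where 13.9% of all genes were called lower. Among 6 apoptotic genes linked to E2F, Bbc3 and Bcl2l11, which encode pro-death proteins of the BCL2 family, were called higher after IL-2 withdrawal (2.01 and 1.66). Bbc3 had been called lower after TCR activation (-3.90).

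**Figure D4:**
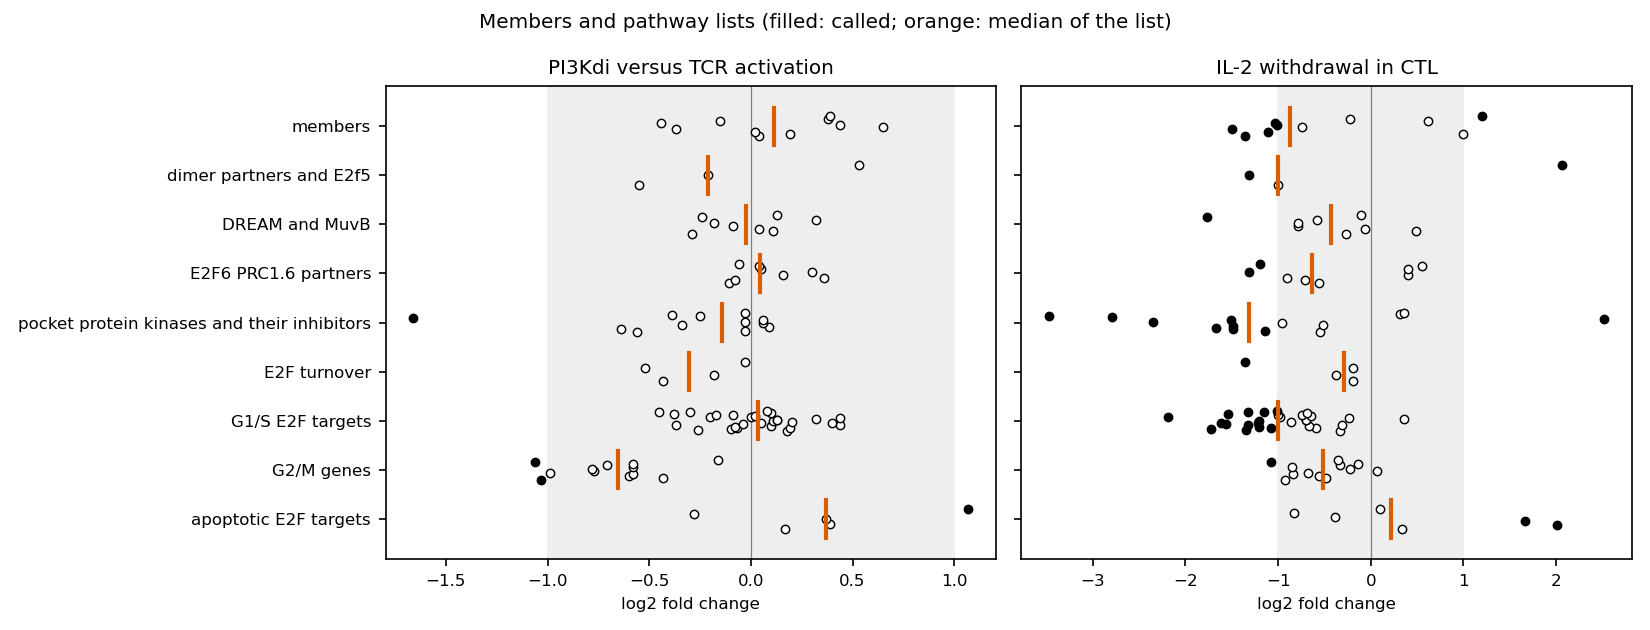
Fitted log2 fold changes of the members and of 8 lists of related genes, with p110δ inhibition on the left and IL-2 withdrawal on the right; each point is 1 gene, filled when called, and the orange mark is the list's median. With the inhibitor the G1/S targets centre at 0.04 and the G2/M genes at -0.66, and without IL-2 the G1/S targets centre at -1.0 and the G2/M genes at -0.52.

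The genes most like 3 of the members were ranked by the smaller of 2 Pearson coefficients on the log2 scale, over the 9 libraries of the first table and the 6 CTL libraries, among 10637 genes present in both. For E2f1 they were Nefh, Mybl2, Chaf1a, Ptma and Uba1, with r of 0.998 in the first table and 0.998 or 0.999 in the CTL table. For E2f8 they were Tpx2, Ccdc99, Nup50, Eif3l and Kif20a, with r from 0.990 to 0.997. For Rbl2 they were Osbpl5, Slc43a2, Fam117a, Snx20 and Tmem50a, with r from 0.992 to 0.995. Libraries within a group share their treatment, so these coefficients describe group differences more than variation between replicates. Among the members, E2f1 and E2f2 had r of 0.99 over the 9 libraries of the first table and -0.86 over the 6 CTL libraries, and E2f1 and E2f3 had 1.00 and 0.98.

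By the RefSeq gene bounds on GRCm38.p6 the activators are E2f1 at chr2:154559400-154569892 (minus strand), E2f2 at chr4:136172274-136196057 (plus strand) and E2f3 at chr13:29906575-29986064 (minus strand). The repressors are E2f4 at chr8:105297663-105305370 (plus strand) and E2f6 at chr12:16810909-16826752 (plus strand), and the atypical genes are E2f7 at chr10:110745439-110787384 (plus strand) and E2f8 at chr7:48866429-48882073 (minus strand). The pocket protein genes are Rb1 at chr14:73192858-73325951 (minus strand), Rbl1 at chr2:157145893-157204534 (minus strand) and Rbl2 at chr8:91070057-91123844 (plus strand). In the GENCODE M21 annotation some members share exon bases with genes on the opposite strand: E2f7 with 1700020G17Rik, E2f8 with Gm2788, Rb1 with Lpar6 and Rcbtb2, and Rbl2 with Aktip and Gm45464. The library kit marks strand, but the strand setting of the counting is not given in the sources used here, and reads of such partners could not be told apart if it was off.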

How the data were processed

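RNA was sequenced from 15 libraries in 5 groups of 3. Per the methods and labels, the authors aligned reads to mm10 with STAR 2.5.2b, counted them over RefSeq genes with Subread 1.5.1, dropped low genes, applied TMM scaling and deposited FPKM, computed with edgeR over non-overlapping exon length and rounded to 2 decimals. Blanks in the first table counted as 0. Of the columns of per-sample values, 0 were left unmapped. As FPKM rather than counts were deposited, voom was not used: log2(FPKM + 0.1) was fitted for all genes with limma 3.58.1 (R 4.3.3), with an intensity trend, in 1 fit for the 9 libraries of the first table and another for the 6 CTL libraries, followed by Benjamini-Hochberg adjustment over all genes. The tables were normalised apart, so nothing was tested between them. Genes were called at adjusted p under 0.05 and a fold change above 2 or below 0.5. The same fit was also run on simulated data, with results not reported here. Depth was estimated from the spacing of low values, with GENCODE M21 exon lengths on GRCm38, the same assembly as mm10.

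The members and gene lists were chosen with earlier results of these data known, so counts over a list are descriptions beside the share of all genes called, with no test of the list. The text names all members, all genes of the dimer partner and DREAM lists, and for other lists up to 3 called genes with the largest change and any called against the majority. Ccnd3, Fzr1, and, against TCR activated cells, Max, Mcm2, Rrm2, Ezh2 and H2-Aa were named after their values were seen. The same holds for Itgam, Itgax, Cd68 and H2-Aa in CTL. Values of a few listed genes are not reported here. Replicate numbers of the first table mark pools of cells divided between conditions: deviations from group means correlated between TCR activated and TCR + PI3Kdi libraries of the same number (mean r 0.33, from 0.20 to 0.51) and not between naive and activated ones (-0.03 and 0.00). In CTL every same-number pair was above 0.1 (mean 0.18, from 0.12 to 0.26). The CTL titles carry replicate numbers, and the methods describe CTL in general as 3 biological replicates generated from 3 mice, without describing these IL-2 withdrawal libraries. Alternatives were the pseudocount (1 or 0.01), a minimum mean FPKM of 1, scaling by medians, a replicate block, no trend, fitting only the compared groups, the fold limit (1.5 or none) and leaving out each library.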

Additional observations from a re-analysis of the deposited data

How the results depend on the processing

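Of 40 member results (10 members in 4 comparisons, 14 or 15 alternatives each), 24 kept their direction and call in every alternative, and of 590 values 551 did. In TCR activation against naive cells the 6 members called higher and 1 lower were called in every alternative. All genes called went from 5489 to 9096 with no fold limit. With the inhibitor against naive cells they went from 5063 to 8906. Between inhibitor-treated and TCR activated cells 579 genes were called, 311 with a pseudocount of 1, 1120 with a limit of 1.5-fold and 1975 with none. There 0 members were called higher, 1 with the 1.5-fold limit and 3 with none. After IL-2 withdrawal 3166 genes were called, 5657 with the 1.5-fold limit and 8056 with none. Members called higher numbered 1, but 2 with a pseudocount of 0.01 or median scaling, 3 with the 1.5-fold limit and 3 with none, and from 1 to 2 as single libraries were left out. Members called lower numbered 5, but 2 with a pseudocount of 1 and 3 with median scaling, and from 3 to 5 as single libraries were left out. The cause of these shifts was not tested. Summed repressor FPKM with the inhibitor was 151 and 155 after median scaling. The sign turned for small differences as libraries were left out: Rb1 in TCR activation ranged from -0.06 to 0.04, E2f5 there from -0.10 to 0.23, E2f1 with the inhibitor from -0.02 to 0.14, E2f3 from -0.04 to 0.10, Lin52 from -0.02 to 0.09 and Rbbp4 from -0.04 to 0.24. With the replicate block 591 genes were called for the inhibitor (579 without) and 3168 for IL-2 withdrawal. Pairing changed no call of a member, and moved E2f8 (adjusted p 0.042 by limma) and Rbl2 (0.053) across the threshold of the adjusted p for the inhibitor. With 3 libraries a group, no exact test of one gene can reach below 0.1, so single-gene statements rest on the spread shared across genes.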
